A study of Mus musculus with 96 samples.

Results

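The miRNAs of mouse cardiomyocytes (CMs) were compared between day 7 after acute myocardial infarction (D7) and hearts without an infarct (D0). The comparison uses the 8 libraries whose labels name CMs, small RNA sequencing and D0 or D7, with 4 libraries at each day, out of 96 libraries in the series. The other libraries come from CMs at 4 further days and from 3 other cell types, namely hematopoietic cells (HCs), fibroblasts (FBs) and endothelial cells (ECs). All mice were male C57Bl/6J animals, and those of the AMI groups were 12 to 14 weeks old when a branch of the left coronary artery was permanently ligated. The D0 mice were not operated on, so that the operation and the infarct cannot be told apart. The RNA of 3 mice was pooled for each library, with pools of 2 in case of a missing sample. CMs were enriched from collagenase-digested hearts by slow centrifugation and were not sorted on a marker. The study's text calls the pools biological replicates in one place and technical replicates in another, so the p-values measure only the spread between these pools. The deposited tables list 1978 mature miRNAs, of which 1016 had at least 1 count in the 8 libraries and 484 passed the filter on low counts and were tested.

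A miRNA is cut from a hairpin precursor, whose stem yields one product from each side, the 5p and the 3p arm. One arm, usually the same one, is loaded into an Argonaute protein and guides it to mRNAs that pair with the seed, bases 2 to 8 of the miRNA, and these mRNAs are repressed. The heart is dominated by a few muscle miRNAs: miR-1 and miR-133 are abundant in all striated muscle, and miR-208a, miR-208b and miR-499 lie in introns of myosin heavy chain genes and are made together with them. After an infarct the surviving myocardium is known for changes in miRNAs tied to hypertrophy, fibrosis and hypoxia, such as miR-21, miR-29, miR-199 and miR-210.

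Sequences that the results turn on are shown with the seed in capitals, from RefSeq annotation of GRCm38.p6, where 413 of the 484 tested miRNAs had an entry. The first set rose at D7 and shares the seed of the miR-29 family, which represses collagen and other matrix genes.
miR-29a-3p: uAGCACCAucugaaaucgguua
miR-29b-3p: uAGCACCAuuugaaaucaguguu
miR-29c-3p: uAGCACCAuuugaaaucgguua
Of the miR-17 family, the members below also rose and share a seed that differs from the former.
miR-17-5p: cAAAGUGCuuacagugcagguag
miR-20a-5p: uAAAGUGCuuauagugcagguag
miR-93-5p: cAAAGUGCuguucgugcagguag
miR-106b-5p: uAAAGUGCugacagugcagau
The miRNAs of the myosin genes are shown because they moved against miR-1a-3p, the most abundant miRNA of these cells.
miR-208a-3p: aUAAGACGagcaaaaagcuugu
miR-208b-3p: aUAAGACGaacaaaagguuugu
miR-499-5p: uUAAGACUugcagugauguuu
Among the sequences that fell are those of miR-148a-3p, the 3p arms of miR-30a and miR-30e, and both miR-10 members. The relatives miR-148b-3p and miR-152-3p carry the seed of miR-148a-3p, and their changes on the TMM scale explained below were smaller.
miR-148a-3p: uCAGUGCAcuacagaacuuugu
miR-148b-3p: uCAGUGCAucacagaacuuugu
miR-152-3p: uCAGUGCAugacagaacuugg
miR-30a-3p: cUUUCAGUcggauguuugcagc
miR-30e-3p: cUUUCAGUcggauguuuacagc
miR-10a-5p: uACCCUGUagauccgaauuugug
miR-10b-5p: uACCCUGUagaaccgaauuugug
Both arms of miR-106b are of interest because the dominant arm differed between the days, and the 3p arm reads as follows.
miR-106b-3p: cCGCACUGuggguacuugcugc

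The libraries held 10504090 to 16052359 counts on mature miRNAs at D0 and 12638115 to 16975435 at D7. Between 533 and 548 miRNAs were detected per library at D0 and between 749 and 815 at D7, with no overlap (exact permutation test, two-sided, p = 0.0286, the smallest p that 4 against 4 libraries allow). Levels are given as CPM, the usual scaling of counts to the total of mature counts in the library, and fold changes on the TMM scale of edgeR, which sets a factor per library from the middle of its ratios to a reference library. These factors lay between 0.289 and 0.357 at D0 and between 1.21 and 2.00 at D7, so the choice of scale moves every change: log2 fold changes on library size alone were higher by a median of 2.30. Among the other CM libraries, factors below 1 were found only in replicates 1 and 2 at D1 (0.491 and 0.543) and in replicate 1 at D28 (0.670). Replicate 1 of D0 stood apart from the other 3 D0 libraries in several miRNAs given below, and the count of changed miRNAs was 343 without it. The libraries at D0 also varied more: the median SD of a miRNA over the 4 libraries, on the log2 TMM scale, was 0.73 at D0 and 0.37 at D7.

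The label was checked against marker miRNAs. The 6 cardiomyocyte markers, miR-1a-3p above all, summed to a median of 662314 CPM at D0 and 435909 at D7, above the medians of the other 3 cell types at both days, which reached 111036 CPM. At D0 this rested on miR-1a-3p: miR-133a-3p had a median of 241 CPM in CMs, below 1182 in ECs and 754 in HCs, whereas at D7 it had 5258 in CMs against 1051 in ECs and 204 in HCs. Markers of other cells were present and moved too. The 6 FB markers (both arms of miR-199a, miR-199b and miR-214) summed to 69.5 to 217 CPM at D0 and 1925 to 4382 CPM at D7, against a median of 101706 in FBs at D7. miR-199a-3p and miR-199b-3p have identical counts, so the same reads enter each of these sums under both names. The EC markers, both arms of miR-126a, lay at 4423 to 9789 CPM at D0 and 13060.3 to 22801 CPM at D7, against 203547 in ECs at D7. The 5 leukocyte markers lay at 14.6 to 75.9 CPM at D0 and 162 to 298 CPM at D7, against 17015 in HCs at D7, and the 3 erythroid markers at 0.779 to 1.90 and 9.73 to 30.2 CPM. Single markers read 0 in some D0 libraries: miR-214-3p, miR-223-3p, miR-223-5p, miR-144-3p and miR-144-5p. The ranges of these 4 sums did not overlap between the days, and the highest D0 value of each was in replicate 1. Mural cell markers, both arms of miR-143 and miR-145a, summed to 22840.1 to 36393 CPM at D0 and lower, to 16758 to 18715 CPM, at D7 without overlap. Nearly all of this sum is miR-143-3p, and the other 3 arms went the other way in CPM, being higher in each D7 library: miR-145a-5p was at 676, 389, 249 and 269.8 CPM at D0 and 2024, 1867, 1839 and 1843 CPM at D7. The liver miRNA miR-122-5p was at 0.561 to 1.56 CPM at D0 and 1.16 to 2.00 at D7. In such bulk libraries, fewer cells of a type and less RNA per cell cannot be told apart.

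The composition of the CM libraries was less dominated by a single miRNA at D7 than at D0. miR-1a-3p, which represses growth and calcium handling genes in muscle, took 70.6%, 70.7%, 60.2% and 61.4% of all mature counts in the 4 D0 libraries and 54.6%, 39.0%, 43.0% and 37.5% at D7, or 65.7% ± 5.71 (SD, n = 4) and 43.5% ± 7.74 (exact permutation test, p = 0.0286). The shares did not overlap, with replicate 1 of D7 closest to D0. miR-148a-3p went from 5.46% ± 3.46 to 1.05% ± 0.165, with D0 replicate 1 lowest of its group at 1.54%. miR-143-3p, a miRNA of smooth muscle and pericytes, went from 2.95% ± 0.678 to 1.50% ± 0.0862. Together the 10 most abundant miRNAs of each library held 89.8% ± 0.890 at D0 and 67.7% ± 5.06 at D7. These 3 comparisons of shares gave the same exact p of 0.0286. The share of reads with no match to a mature miRNA was 29.0% to 42.0% at D0 and 41.8% to 46.2% at D7, overlapping by 1 library (exact p = 0.0571).

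**Figure D1:**
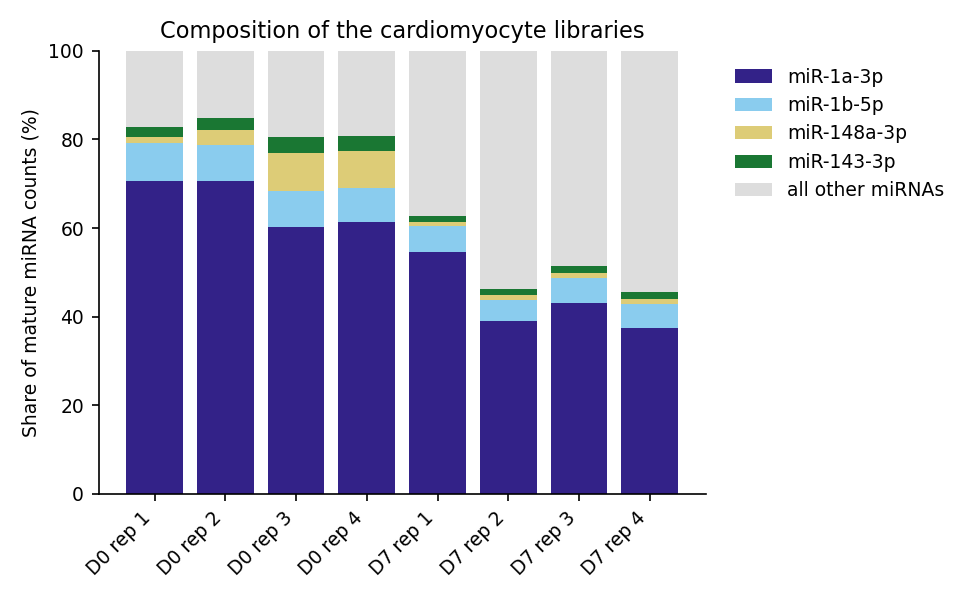
Share of mature miRNA counts (%) in each of the 8 CM libraries, stacked from 0 to 100, for miR-1a-3p, miR-1b-5p, miR-148a-3p, miR-143-3p and all other miRNAs. The grey part, all other miRNAs, is larger in each D7 bar than in each D0 bar.

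By its mean, miR-1b-5p was the second most abundant name at D0, at 8.04% ± 0.412, and went to 5.47% ± 0.472, though miR-148a-3p was above it in D0 replicates 3 and 4. Its hairpin lies antisense to one of the hairpins of miR-1a, and its counts were 10.8 to 14.3 per 100 counts of miR-1a-3p in all 8 libraries, with no difference between the days that passed the test (exact p = 0.657). The sources used here do not say whether strand was used in counting, so the 2 names cannot be told apart. The same holds for miR-126b-3p, which lies antisense to miR-126a-5p and had the same count in each D0 library and nearly the same at D7.

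Of the 484 tested miRNAs, 334 (69.0%) changed between D0 and D7, 188 (38.8%) higher and 146 (30.2%) lower at D7, with edgeR's quasi-likelihood test and an adjusted p under 0.05. On library size alone 419 (86.6%) changed, 388 (80.2%) higher and 31 (6.40%) lower, and 347 were higher and 60 lower on library size without miR-1a-3p. All 188 rises and 31 of the falls passed under the 4 scalings run in edgeR, which were TMM, RLE factors and library size with and without miR-1a-3p. Library size moved every log2 fold change up, by 0.55 to 2.46. A rise on TMM could therefore not turn on library size, and its pass there adds no evidence. A further 56 miRNAs were lower on the TMM scale and higher on library size, and 59 were lower on TMM with no call on library size. Of the 110 miRNAs that averaged 100 CPM or more, 36 rose and 13 fell under all 4 scalings, while 29 turned direction between TMM and library size. Many rises concern scarce miRNAs: 104 of the 188 had a mean under 10 counts at D0 and at least 10 at D7, whereas among the 278 miRNAs with at least 10 at both days 83 rose and 130 fell. On the TMM scale the 4 libraries of D7 lay above all those of D0 for 162 miRNAs (33.5%) and below for 122 (25.2%), and in CPM above for 367 (75.8%) and below for 14 (2.89%).

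**Figure D2:**
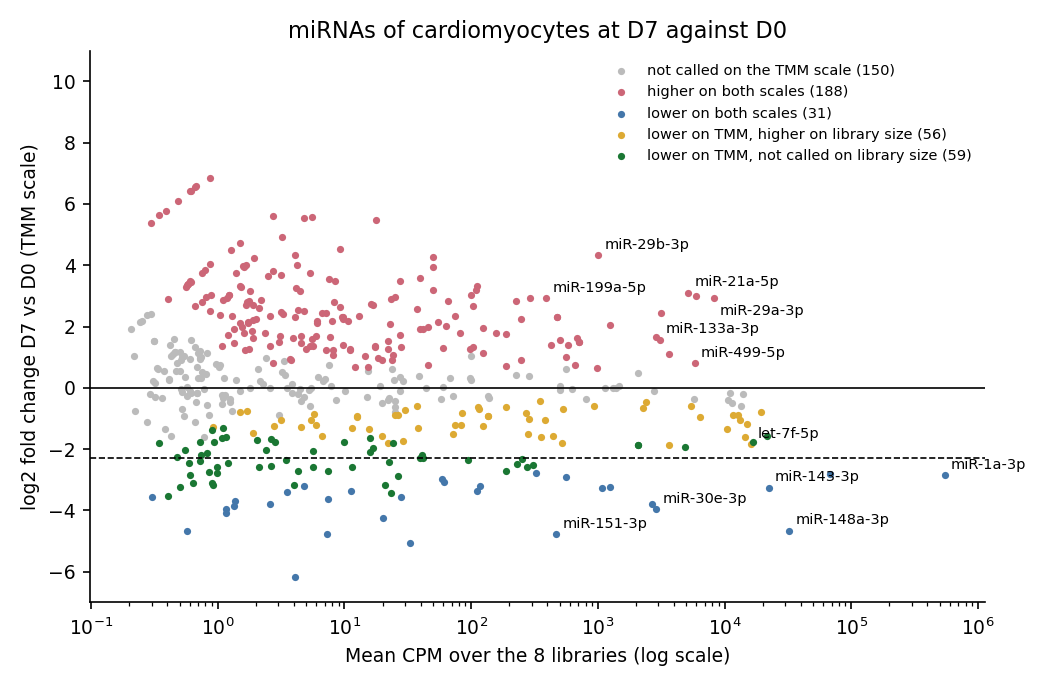
Log2 fold change of D7 over D0 on the TMM scale (y) against the mean CPM over the 8 libraries (x, log scale), with 1 point for each of the 484 tested miRNAs, coloured by the calls on TMM and library size. The solid line marks no change on TMM, and the dashed line, 2.30 below it, marks about no change on library size, so the yellow points (56) lie between the lines and change direction with the scale. The rises of the 9 miRNAs with no count at D0 depend on the prior count of the fit.

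The muscle miRNAs split. Of 14 tested miRNAs of the myomiR list, 9 rose and 3 fell on TMM, against 38.8% and 30.2% of all tested miRNAs. Their median log2 fold change was 1.58 against 0.35 over all. On library size 11 were higher and 3 lower, where 80.2% and 6.40% of all were. Of the 14 arms 4 had a mean under 10 CPM. The falls were miR-1a-3p, its antisense partner miR-1b-5p and miR-206-3p, a relative of miR-1 that is best known from skeletal muscle. The log2 fold change of miR-1a-3p was -2.84 (SE 0.32, adjusted p = 2.96e-07) on TMM and -0.60 on library size, and that of miR-206-3p -2.78 and -0.49.

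Positions of hairpins are given on GRCm38 with the GENCODE annotation of that build. miR-208a-3p, from an intron of Myh6, the gene of the adult alpha myosin heavy chain (chr14:54949060-54949142, minus strand), was at 173, 78.6, 111 and 104 CPM in replicates 1 to 4 of D0 and 2022, 2818, 2089 and 2573 CPM at D7. All D7 libraries lay above all D0 libraries (log2 fold change 2.05, SE 0.31, adjusted p = 8.18e-06). miR-208b-3p, from an intron of Myh7, the gene of the beta myosin chain of the fetal and stressed heart (chr14:54975700-54975776, minus strand), was at 2.67, 1.91, 1.99 and 1.84 CPM at D0 and 65.4, 165, 60.1 and 104 CPM at D7 (log2 fold change 3.18, SE 0.50, adjusted p = 1.05e-05). It was nearly absent from the D0 libraries and present in each D7 library. miR-499-5p, from an intron of Myh7b (chr2:155622880-155622958, plus strand), had 1609, 912, 1054 and 1224 CPM at D0 and 8473, 14256, 8355 and 10787 CPM at D7 (log2 fold change 0.81, SE 0.21, adjusted p = 0.00188).

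miR-133a-3p, which is known to restrain hypertrophy and fibrosis, was at 903, 295, 186 and 182 CPM at D0 and 5106, 7441, 5022 and 5411 CPM at D7. Its D0 replicate 1 was over 3 times the other D0 libraries and still below each D7 library (log2 fold change 1.57, SE 0.47, adjusted p = 0.0051). miR-133b-3p, nearly the same sequence, moved by 1.67. Because a ratio of 2 miRNAs within a library needs no scaling, each was also set against miR-1a-3p. The log2 ratio of miR-133a-3p to miR-1a-3p rose from -11.05 ± 0.99 (SD, n = 4) to -6.25 ± 0.44, that of miR-208a-3p from -12.52 ± 0.47 to -7.52 ± 0.45, that of miR-208b-3p from -18.24 ± 0.20 to -12.21 ± 0.85 and that of miR-499-5p from -9.13 ± 0.35 to -5.40 ± 0.55. None of these 4 ratios overlapped between the days (exact permutation test, p = 0.0286 each). The share of miR-1a-3p itself fell without overlap. A ratio to miR-1a-3p therefore rose without overlap for all 367 tested miRNAs (75.8%) whose CPM was higher in each D7 library. These 4 results thus do not set the muscle miRNAs apart from most others. miR-206-3p moved with miR-1a-3p instead, with ratios of -10.76 ± 0.14 and -10.66 ± 0.36 (exact p = 0.543).

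Of the 6 tested arms of the miR-29 family 5 rose and none fell on TMM, against 38.8% and 30.2% of all tested miRNAs, with a median log2 fold change of 2.16. On library size all 6 were higher, where 80.2% of all were. miR-29b-3p had the largest rise among the 110 miRNAs averaging 100 CPM or more. It was at 21.3, 11.1, 19.2 and 26.0 CPM in the D0 libraries and 402, 1167, 1963 and 4486 CPM in the D7 libraries, so that the D7 values themselves spread over more than 10-fold (log2 fold change 4.34, SE 0.60, adjusted p = 2.27e-06). miR-29a-3p was the most abundant of them, at 850.4, 296, 227 and 297 CPM at D0 and 10949, 19924, 14802 and 18218 CPM at D7 (log2 fold change 2.94, SE 0.45, adjusted p = 8.18e-06). miR-29c-3p was at 567, 212, 161 and 201 CPM at D0 and 6846, 14342, 11296 and 13931 CPM at D7 (log2 fold change 3.01, SE 0.43). For miR-29a-3p and miR-29c-3p the highest D0 value was in replicate 1, and the lowest D7 value of all 3 was in replicate 1 of D7. Mir29a and Mir29b-1 are neighbours on chromosome 6 (chr6:31062660-31062747, minus strand and chr6:31063023-31063093, minus strand), and Mir29b-2 and Mir29c on chromosome 1 (chr1:195037040-195037120, plus strand and chr1:195037547-195037634, plus strand), in exons of the long transcript A330023F24Rik. The passenger arms, named here after their values were seen, moved less: miR-29a-5p rose by 1.23 and miR-29b-2-5p by 1.38, and miR-29c-5p had 0.056, which did not pass the test.

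**Figure D3:**
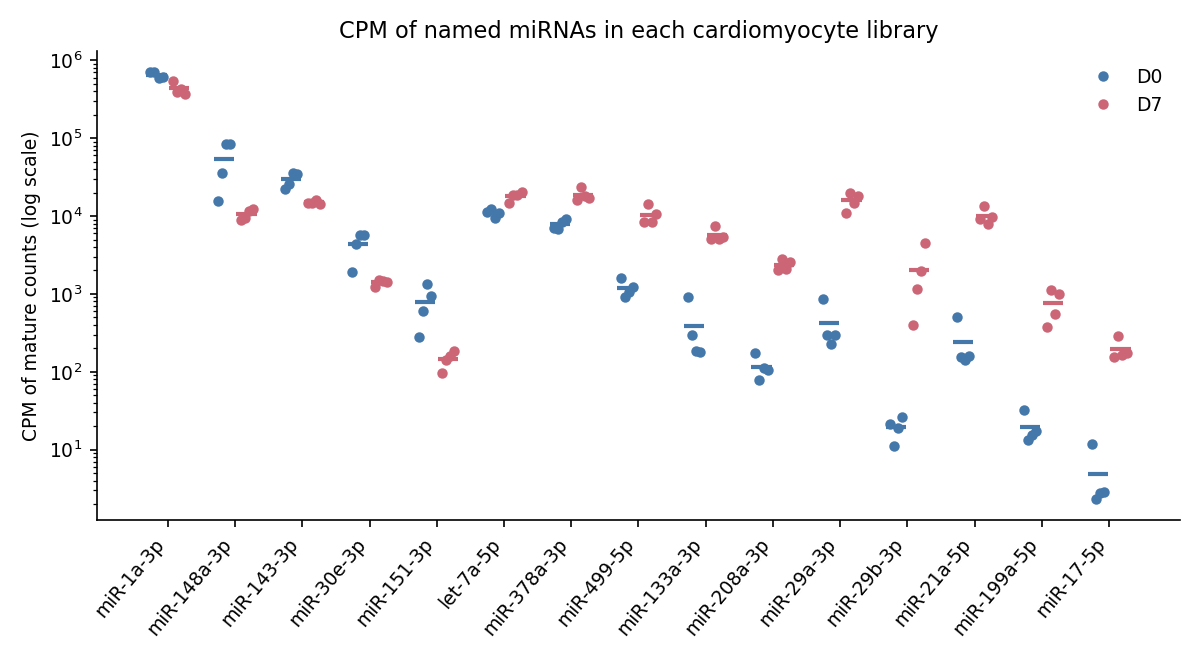
CPM of mature counts (y, log scale) of 15 miRNAs in each of the 4 libraries at D0 (blue) and at D7 (red), with a bar at the mean of each group. The 5 miRNAs on the left are lower at D7 in each library, let-7a-5p and miR-378a-3p are higher in CPM although lower on the TMM scale, and the 8 on the right are higher on both.

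Of 25 tested arms of miRNAs tied to injury and remodeling 19 rose and 3 (miR-22-5p, miR-221-5p and miR-212-5p) were lower on TMM, with a median log2 fold change of 2.32, against 38.8% higher and 30.2% lower over all tested miRNAs. On library size 23 were higher and none lower, where 80.2% and 6.40% of all were. The rises count miR-199a-3p and miR-199b-3p separately, although their counts are identical. Of the 25 arms 12 had a mean under 10 CPM. Those near 0 counts at D0, such as miR-212-3p (0, 0, 0 and 1), had little room to fall. miR-21a-5p, known from hypertrophy and fibrosis and encoded in an exon of Vmp1 (chr11:86584067-86584158, minus strand), was at 499.5, 153, 142 and 161 CPM at D0 and 9102, 13651, 7992 and 9673 CPM at D7. The groups were far apart although D0 replicate 1 stood above its group (log2 fold change 3.11, SE 0.36, adjusted p = 4.07e-07). miR-210-3p, a miRNA induced by hypoxia, had 10.9, 2.69, 2.43 and 2.75 CPM at D0 and 152, 324, 165 and 209.9 CPM at D7 (log2 fold change 3.19, SE 0.56, adjusted p = 3.63e-05). miR-34a-5p, a target of p53, rose by 1.34 (SE 0.37) and miR-221-3p by 0.91 (SE 0.26).

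miR-199a-5p, encoded in part by an exon of Dnm3os (chr1:162217814-162217923, plus strand), was at 32.2, 13.3, 15.6 and 17.2 CPM at D0 and 377, 1135, 553 and 1001 CPM at D7 (log2 fold change 2.92, SE 0.32, adjusted p = 2.96e-07). miR-199b-5p moved alike, by 2.93 (SE 0.31), and miR-199a-3p, whose counts are identical to those of miR-199b-3p, by 2.32 (SE 0.35). miR-214-3p, from the transcript that also holds miR-199a, rose by 3.48 (SE 0.58). All of these are defining FB miRNAs whose summed level is given above for each day, and the part of FB RNA in their rise was not tested. The leukocyte miRNAs miR-142a-3p (2.73), miR-142a-5p (3.54) and miR-223-3p (3.67) and the erythroid miRNAs miR-451a (1.23), miR-144-3p (3.97) and miR-144-5p (2.70) also rose, all from means under 2 CPM at D0.

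Most tested arms of 2 families that act on cell growth rose. Of the miR-17-92 cluster and its paralogs, which promote proliferation, 11 of 14 tested arms rose and 2 were lower on TMM, against 38.8% and 30.2% of all tested miRNAs. On library size 13 were higher and none lower, where 80.2% and 6.40% of all were. The median log2 fold change was 2.59, or 2.38 with 1 arm that had no count at D0 set at its lower bound. Of the 14 arms 5 had a mean under 10 CPM, and arms near 0 counts at D0 had little room to fall. The 6 tested miRNAs with the miR-17 seed all rose, with a median of 2.54. miR-17-5p, in the host transcript Mir17hg (chr14:115043671-115043754, plus strand), was at 11.7, 2.34, 2.74 and 2.83 CPM at D0 and 156, 285, 165 and 175 CPM at D7, with D0 replicate 1 well above its group (log2 fold change 3.02, SE 0.60, adjusted p = 1.56e-04). miR-20a-5p, from the same transcript, was at 55.5, 8.49, 9.47 and 9.41 CPM and 463, 548, 471 and 414 CPM (log2 fold change 2.26, SE 0.57). miR-19a-3p (2.69), miR-19b-3p (2.83) and miR-93-5p (1.94) rose as well. Both lower values depended on the scale: miR-25-3p was at -1.61 on TMM and 0.69 on library size, and miR-106b-3p at -2.30 and -0.024.

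Of the miR-15 and miR-16 family, known for repressing cell cycle genes, 9 of 13 tested arms rose and 1, miR-195a-3p, fell (-3.36 on TMM and -1.06 on library size), with a median of 2.15. Over all tested miRNAs 38.8% rose and 30.2% fell on TMM. On library size 12 of the arms were higher, where 80.2% of all were, and 5 of the 13 had a mean under 10 CPM. Arms near 0 counts at D0 again had little room to fall. miR-16-5p, the most abundant, was at 109, 45.5, 40.7 and 43.8 CPM at D0 and 560.4, 992, 751 and 876 CPM at D7 (log2 fold change 1.41, SE 0.31, adjusted p = 4.23e-04). miR-339-5p, in an intron of 3110082I17Rik (chr5:139369650-139369745, minus strand), belonged to no list and had a rise from 12.8, 2.19, 1.68 and 0.994 CPM to 158, 308, 202 and 202 CPM (log2 fold change 3.33, SE 0.71, adjusted p = 2.71e-04).

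The largest falls, by log2 fold change, among the 13 abundant miRNAs that were lower under all 4 scalings were those of miR-151-3p, miR-148a-3p, miR-30e-3p and miR-30a-3p. miR-148a-3p (chr6:51269812-51269910, minus strand), a regulator of lipid metabolism in liver, was at 15412, 35412, 84068 and 83398 CPM at D0 and 8778, 9503, 11477 and 12310.4 CPM at D7. Its D0 values fell into a low pair (replicates 1 and 2) and a high pair (replicates 3 and 4), all above D7 (log2 fold change -4.66, SE 0.79, adjusted p = 2.57e-05, and -2.38 on library size). miR-148b-3p, which has the same seed, was at -1.81 on TMM and 0.47 on library size. miR-152-3p was at -0.034 on TMM (adjusted p = 0.91), and its log2 fold change on library size was positive. Its counts were 3787, 2176, 2984 and 2362 at D0 and 14879, 14385, 16158 and 14950 at D7. Over the list of miR-148, miR-152 and miR-151 relatives 8 of 12 tested arms were lower and 2 higher on TMM, with a median of -1.73. Over all tested miRNAs 30.2% were lower and 38.8% higher, with a median of 0.35. On library size 3 were lower and 6 higher, where 6.40% and 80.2% of all were.

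miR-151-3p, from an intron of Ptk2, the gene of focal adhesion kinase (chr15:73254815-73254882, minus strand), was at 279, 609, 1339 and 949 CPM at D0 and 97.1, 143, 159.8 and 187 CPM at D7 (log2 fold change -4.76, SE 0.63, adjusted p = 1.40e-06). The other arm of that hairpin, miR-151-5p, went from 26.4, 14.7, 14.1 and 28.0 CPM to 143, 242, 239.6 and 291 CPM (log2 fold change 1.15, SE 0.32). The 2 arms of 1 hairpin thus moved in opposite directions, and the CPM of both arms did not overlap between the days.

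miR-30e-3p, from an intron of Nfyc (chr4:120772606-120772697, minus strand), was at 1939.7, 4333, 5639 and 5671 CPM at D0 and 1212, 1521, 1481 and 1427 CPM at D7 (log2 fold change -3.95, SE 0.49, adjusted p = 7.04e-07). miR-30a-3p (chr1:23272269-23272339, plus strand), which shares its seed, had 1851, 3991, 4902 and 5113 CPM and 1253, 1559, 1487 and 1424 CPM (log2 fold change -3.78, SE 0.46, adjusted p = 7.04e-07). In both, D0 replicate 1 was the lowest of its group and yet above each D7 library. The 5p arms, the main products of these genes and known for repressing matrix growth factors, had smaller changes whose direction depended on the scale: miR-30a-5p was at -0.78 on TMM (adjusted p = 0.0106) and 1.51 on library size, miR-30d-5p at -1.19 and 1.10, and miR-30e-5p at -0.58 (adjusted p = 0.0937) and 1.73. miR-30b-5p rose on TMM, and so also on library size, from 575, 161, 82.2 and 88.0 CPM to 5009, 7776, 5402 and 6324 CPM (log2 fold change 2.45, SE 0.56, adjusted p = 5.25e-04). Over all 11 tested arms of the family 6 were lower and 1 higher on TMM, against 30.2% and 38.8% of all tested miRNAs, with a median of -0.78. On library size 2 were lower and 8 higher, where 6.40% and 80.2% of all were. miR-30c-5p was at -0.49 (adjusted p = 0.108) and 1.82, and miR-30c-2-3p at -2.34 and -0.082.

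miR-10a-5p and miR-10b-5p, encoded within Hox gene clusters (chr11:96317165-96317274, plus strand and chr2:74726070-74726137, plus strand), fell by a similar amount. miR-10a-5p was at 1234, 1459, 1925 and 1924 CPM at D0 and 510.3, 569.6, 1193 and 1184 CPM at D7, where replicates 1 and 2 were about a factor of 2 below replicates 3 and 4 (log2 fold change -3.23, SE 0.51, adjusted p = 1.09e-05). miR-10b-5p showed the same split at D7, with 395, 483, 1039 and 1022 CPM, and overlapped D0 in CPM (1028, 1225, 1697 and 1723 CPM), though not on TMM (log2 fold change -3.26, SE 0.52). miR-143-3p was at 22007, 25698, 36076 and 34386 CPM and 14647, 14803, 16246 and 14284 CPM (log2 fold change -3.26, SE 0.44), and it is one of the mural markers whose sums are given above, so the part of mural cells in its fall was not tested. Its hairpin partner miR-143-5p (1.04, adjusted p = 0.0635) and both arms of miR-145a (-0.013 and 0.38) did not pass the test on TMM and were higher on library size (3.27, 2.26 and 2.65). Lower in all 4 scalings were also miR-181a-2-3p (-3.36), miR-674-3p (-3.21) and miR-99b-5p (-2.90), although their CPM ranges overlapped. The relatives miR-99a-5p and miR-100-5p, both among the 10 most abundant, varied at D7 from 10417 to 53206 and from 7015 to 39351 CPM and were lower on TMM (-1.56 and -1.77) with no call on library size (0.79 and 0.58).

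For several abundant families the direction depended on the scale. Of 21 tested arms of let-7 and miR-98, which hold back growth genes in differentiated cells, 14 were lower and 3 higher on TMM (median -0.91), while 19 were higher and none lower on library size (median 1.41), where 80.2% of all tested miRNAs were higher. Over all tested miRNAs 30.2% were lower and 38.8% higher on TMM. let-7f-5p, the most abundant, was at 14366, 15304, 11272 and 13384 CPM at D0 and 16223, 18416, 19425 and 21321 CPM at D7, that is -1.83 on TMM (SE 0.22, adjusted p = 5.68e-07) and 0.47 on library size (adjusted p = 0.00507). let-7a-5p had 11388, 12484, 9509.8 and 10801 CPM and 14853, 18518, 18781 and 20479.5 CPM (-1.60 on TMM and 0.72 on library size). On TMM let-7b-5p (-0.64), let-7c-5p (-0.58), let-7d-3p (-1.02), let-7e-5p (-0.46), let-7g-5p (-0.94), let-7j (-1.87) and the shared counts of let-7a-1-3p and let-7c-2-3p (-0.91) were lower, each of them being higher on library size, and let-7i-5p was lower on TMM (-1.93) with no call on library size (0.36). let-7d-5p (0.067, adjusted p = 0.82) and miR-98-5p (-0.25, adjusted p = 0.199) did not pass the test on TMM and were higher on library size (2.38 and 2.06). In CPM, which is itself a scaling by library size, let-7i-5p and let-7j overlapped between the days, and the other 5p arms named here were higher in each D7 library.

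In the list of metabolic and abundant cardiac miRNAs the scale decided as well, with 10 of 19 tested arms lower and 4 higher on TMM, against none lower and 15 higher on library size. Over all tested miRNAs 30.2% were lower and 38.8% higher on TMM, and 6.40% and 80.2% on library size. miR-378a-3p, hosted by Ppargc1b and known from mitochondrial metabolism, was at 7029.8, 6887, 8493 and 9166 CPM at D0 and 16239.5, 23506, 17951 and 17230.4 CPM at D7, or -1.06 on TMM (SE 0.21, adjusted p = 1.18e-04) and 1.25 on library size. Its partner arm miR-378a-5p rose on both, by 1.63 (SE 0.33) and 3.96. miR-378b, miR-378c and miR-378d were lower on TMM (-1.50, -0.90 and -1.34) and higher on library size (0.80, 1.41 and 0.97). miR-26a-5p (-0.17, adjusted p = 0.442), miR-26b-5p (adjusted p = 0.99) and miR-22-3p (-0.36, adjusted p = 0.158) did not pass the test on TMM and were higher on library size (2.13, 2.32 and 1.94), and miR-22-5p was at -0.64 and 1.69. The muscle and red cell miRNA miR-486a-5p, counted alike under miR-486b-5p, was at -1.87 on TMM and 0.41 on library size (adjusted p = 0.0698), and the 3p arms were at -2.58 and -2.47 on TMM with no call on library size (-0.34 and -0.24).

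The arms of miR-126a, the defining EC miRNA, moved apart on TMM. miR-126a-3p was at 9573, 4371, 6969 and 6369 CPM at D0 and 11999, 20908, 21503 and 19839 CPM at D7 (-0.87 on TMM, SE 0.24, and 1.44 on library size). miR-126a-5p was at 216, 52.3, 57.0 and 53.2 CPM and 1061, 1893, 1213 and 1184 CPM (1.51 on TMM, SE 0.44, and 3.82 on library size). Both arms were higher in CPM in each D7 library, and the part of EC RNA in this was not tested.

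Of the miR-23, miR-27 and miR-24 clusters, 1 of 10 tested arms rose and 4 were lower on TMM, against 8 higher and none lower on library size, where 38.8% and 30.2% of all tested miRNAs were higher and lower on TMM and 80.2% and 6.40% on library size. The rise was that of miR-23a-3p (0.76, adjusted p = 0.0387), which lost its call in 5 of the 8 fits that left out 1 D0 or D7 library (without D0 replicate 3 or 4 or D7 replicate 2, 3 or 4, adjusted p = 0.084 to 0.146). miR-23b-3p (0.61), miR-24-3p (-0.11), miR-27a-3p (-0.39) and miR-27b-3p (-0.22) did not pass the test on TMM and were higher on library size (2.96, 2.22, 1.95 and 2.11), and miR-24-2-5p was lower on TMM (-1.05) and higher on library size (1.28). Among miRNAs induced in inflammation, 2 of 6 tested arms rose, both with means under 1 CPM, and 2 were lower on TMM. miR-155-5p, a miRNA of activated immune cells, was at 78.6, 60.3, 49.7 and 36.7 CPM at D0 and 152, 192, 171 and 188 CPM at D7, or -0.68 on TMM (adjusted p = 0.0133) and 1.64 on library size, and miR-146a-5p was at -0.33 (adjusted p = 0.227) and 1.96. miR-150-5p, a lymphocyte miRNA, had 0.27 (adjusted p = 0.577) and 2.53.

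The miRNAs of the imprinted Dlk1-Dio3 region, which are known from embryonic development, were scarce at D0. Of 43 tested arms 37 rose and none fell on TMM, against 38.8% and 30.2% of all tested miRNAs, and 43 rose on library size, where 80.2% of all did, but none reached a mean of 100 CPM and 37 had a mean under 10 CPM. Arms near 0 counts at D0, such as miR-410-3p (1, 0, 0 and 1), passed the filter through other days and had little room to fall. The share that rose is therefore no test of the region. Rises on TMM were found only at means up to 27.4 CPM. The better counted miR-127-3p, at 364, 335, 401 and 316 counts at D0, was not called on TMM. Their median log2 fold change was 2.85, or 2.51 with the 4 arms that had no count at D0 set at their lower bound. The most abundant of those that rose, named after its values were seen, was miR-411-5p, which went from 1.43, 0.708, 0.748 and 0.918 CPM at D0 to 25.8, 61.2, 51.4 and 77.1 CPM at D7 (log2 fold change 3.49). Over all tested miRNAs a mean under 10 counts at D0 and at least 10 at D7 was found in 172, of which 104 were called higher.

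The balance of the 2 arms of a hairpin does not depend on scaling. With 0.5 added to each arm's count, the log2 of 5p over 3p was taken in every library and tested with limma in 102 hairpins, those whose arms both averaged 10 counts or more. The ratio changed in 71 of 102 hairpins (69.6%), toward the 5p arm in 36 (35.3%) and toward the 3p arm in 35 (34.3%), and 55 of the 71 had no overlap between the libraries of the days. With 5 added in place of 0.5 the split was 43 and 32, and it was 27 and 19 over the 64 hairpins whose arms both averaged 50 counts or more. In 16 of the 71 the mean log2 ratio over 4 libraries changed its sign, from the 3p side at D0 to the 5p side at D7 in 11 and the other way in 5. The libraries of the days overlapped in 4 of the 16 (miR-301a, miR-338, miR-708 and miR-122b). D0 libraries lay on both sides of 0 for miR-195a, miR-301a, miR-503, miR-201 and miR-122b, the last 2 with D0 means near 0. D7 libraries lay on both sides for miR-301a, miR-322 and miR-708.

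miR-106b, in an intron of Mcm7 (chr5:138165737-138165818, minus strand), had log2 ratios of -4.57, -4.97, -5.98 and -5.72 in the 4 D0 libraries and 0.49, 1.60, 1.05 and 1.75 at D7, so its 3p arm led in each D0 library and its 5p arm in each D7 library (difference 6.53, SE 0.80, adjusted p = 5.00e-06). Both of its sequences are given above. miR-151 likewise went from -3.40, -5.37, -6.56 and -5.08 to 0.55, 0.76, 0.58 and 0.63 (difference 5.74, SE 0.76, adjusted p = 5.08e-06), and its D7 libraries lay close together.

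miR-582 also met the rule for named hairpins, but its 5p arm was at or near 0 at D0. miR-582-5p had 2, 0, 0 and 0 counts in the D0 libraries and 33, 396, 58 and 108 at D7, and miR-582-3p had 64, 93, 763 and 874 counts at D0 and 51, 230, 86 and 125 at D7. The D0 ratio of 3 libraries is thus set by the 0.5 that was added, and no size is given for its change. miR-674 (4.69), miR-143 (4.64), miR-361 (4.05) and miR-345 (4.04) moved toward the 5p arm while the 3p arm stayed in the lead, and miR-30b (4.63) moved further toward its leading 5p arm, from 5.03, 2.44, 2.02 and 1.85 to 7.58, 7.48, 7.27 and 7.52. In the 7 hairpins other than miR-582 D0 replicate 1 was the closest of the D0 libraries to the D7 ones, and the means of D1 and D3 lay between those of D0 and D7.

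**Figure D4:**
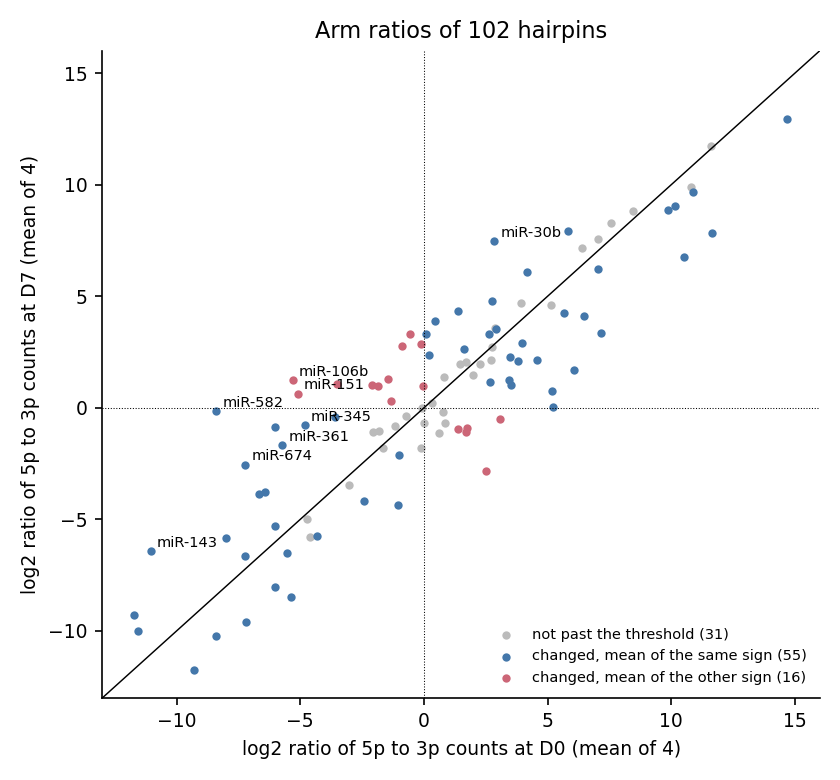
Log2 of 5p over 3p counts at D7 (y) against D0 (x), each the mean of 4 libraries, with 1 point for each of the 102 hairpins. Points on the diagonal did not move, and the 16 red points have means on opposite sides of a dotted zero line, which marks equal counts on both arms. A ratio with an arm at 0 counts, as for miR-582 at D0, is set by the 0.5 that was added.

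The change in CMs was set against the change over the same days in the other cell types, in 1 fit of all 96 libraries and 712 miRNAs. By the study's methods the cell types of a day came from the same mice, and the fit treats their libraries as independent. The study dropped a small RNA library of HCs at D0, of FBs at D0 and of ECs at D28 as outliers. The fit used here keeps every library, and no fit without an FB library was run. The change in CMs differed from the mean change of ECs, FBs and HCs in 319 miRNAs (44.8%), 201 (28.2%) more positive and 118 (16.6%) more negative in CMs on TMM. On library size the split was 403 and 41, and with DESeq2 164 and 168. In this fit miR-29b-3p moved by 4.67 in CMs, while it had -0.58 in HCs, -1.43 in FBs and -1.07 in ECs, a difference of 5.70 (SE 0.67, adjusted p = 2.06e-11). miR-29c-3p (4.13) and miR-29a-3p (4.05) differed in the same way, and both were lower at D7 in FBs (-1.41 and -1.40, adjusted p = 0.00194 and 0.00249). miR-148a-3p moved by -4.28 in CMs, while it had 0.011 in HCs, 1.55 in FBs and -0.37 in ECs, a difference of -4.68 (SE 0.51, adjusted p = 2.04e-12). miR-151-3p (-3.99) and miR-10a-5p (-3.12) were also more negative in CMs. RNA input and PCR cycles differed between the cell types, were alike within one, and cannot be told apart from cell type.

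Few differences were found between D7 and the days around it. Against D3, 15 miRNAs (3.10%) passed the test, 7 higher (1.45%) and 8 lower (1.65%), and against D14 7 (1.45%), 5 of them higher at D14 (1.03%) and 2 lower (0.413%). At an unadjusted p under 0.05 there were 99 and 52. DESeq2 called 52 against D3 and 12 against D14. These 2 counts rest on single libraries: 1 to 43 miRNAs were called against D3 when a library was left out, with 43 without D3 replicate 3, 19 without D7 replicate 1, 9 without D7 replicate 2, 3 without D7 replicate 3 and 1 without D7 replicate 4 or any other D3 replicate, and 0 to 6 against D14. The count by edgeR was 0 without D7 replicate 3, D7 replicate 4 or D14 replicate 3, with 40 to 47 at an unadjusted p under 0.05, against 12 by DESeq2 on all libraries.

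Between D3 and D7 miR-29b-3p rose by 3.34 (SE 0.57, edgeR adjusted p = 0.00206), and it alone was called with each of the 8 libraries left out. miR-208a-3p rose by 1.39 (SE 0.31, adjusted p = 0.0188) and was called in 4 of these 8 fits. miR-378a-3p (-0.90), miR-378b (-1.06), miR-378c (-0.86) and miR-378d (-0.97) were lower on TMM and were not called on library size. The other called miRNAs had means under 100 CPM. The level of miR-29a-3p, on the log2 TMM scale, was 10.12 ± 0.81 at D0 (SD, n = 4, as for all days), then 11.58 ± 1.00 at D1 and 12.07 ± 0.78 at D3, reached 13.25 ± 0.10 at D7 and was 13.16 ± 0.18 at D14 and 12.77 ± 0.44 at D28. miR-21a-5p went from 9.30 ± 0.83 at D0 through 10.53 ± 0.65 at D1 and 12.16 ± 0.46 at D3 to 12.60 ± 0.25 at D7. miR-148a-3p went from 17.06 ± 1.16 at D0 through 14.61 ± 1.96 at D1, where the 4 libraries split in pairs, to 13.20 ± 1.06 at D3 and 12.67 ± 0.30 at D7. For these miRNAs the largest part of the D7 difference was thus present at D3, whereas most of the rise of miR-29b-3p, at 5.84 ± 0.40, 6.72 ± 0.74 and 9.80 ± 1.30 at D0, D3 and D7, came after D3.

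**Figure D5:**
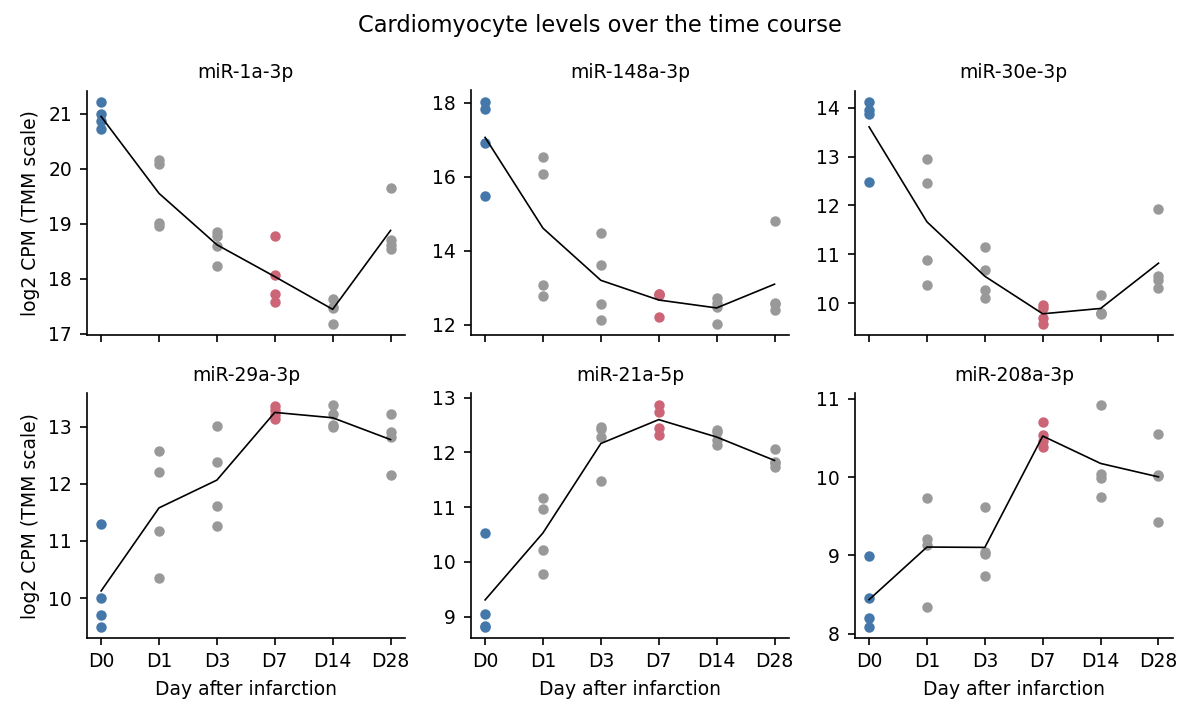
Level on the log2 TMM scale (y) of 6 miRNAs in the 24 CM libraries by day (x, evenly spaced), with 1 point per library, D0 in blue, D7 in red and a line through the means of 4. miR-1a-3p, miR-148a-3p and miR-30e-3p are lowest at D7 or D14, miR-29a-3p, miR-21a-5p and miR-208a-3p have their highest mean at D7, and at D1 the falls of the upper row show 2 high and 2 low libraries.

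Sequence composition was described across the 413 tested miRNAs with a RefSeq sequence. Those that were higher at D7 on TMM had a median GC content of 45.5%, those lower 50% and those not called 47.7%, and Spearman's rho of GC content with the log2 fold change was -0.22 (n = 413 miRNAs, which share the same 8 libraries and are not independent). By the last base of the annotated sequence, the median log2 fold change was 1.06 for A (n = 83), 0.66 for U (n = 154), 0.09 for G (n = 88) and -0.15 for C (n = 88). By seed, the miR-148 seed held 2 miRNAs lower on TMM among 3 and the miR-30 5p seed 1 among 3 with a sequence (miR-148b-3p and miR-30a-5p being higher on library size), and none of these was higher on TMM. The 3 miR-29 members all rose, and 7 of the 9 let-7 members were lower on TMM and higher on library size except let-7i-5p, which had no call there. Over all tested miRNAs 38.8% were higher and 30.2% lower on TMM.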

How the data were processed

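Small RNA libraries were made by the authors from pooled CM RNA (500 ng, 14 PCR cycles), trimmed with Trim Galore, rid of reads under 18 nt and counted through nf-core smrnaseq. The methods name miRBase version 21, but the tables hold names added later, such as miR-12181-3p, so the release used is not settled here. The deposited counts are raw whole numbers of reads per mature miRNA. The line for reads with no match (29.0% to 46.2%) was kept out of totals, and 96 hairpin tables were not used. SAMtools, Bowtie2 and mm10 are named in the submitters' processing notes, and the strand used in counting is not given in the sources used here.

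Counts of 24 CM libraries were filtered with filterByExpr, scaled with TMM and tested with the quasi-likelihood test of edgeR 4.0.16 in R 4.3.3, all days sharing 1 estimate of the spread, with Benjamini-Hochberg adjustment over the 484 miRNAs tested. A miRNA was called at an adjusted p under 0.05. The contrasts were D7 against D0, D7 against D3, D14 against D7 and, in a fit of 96 libraries, the D7 change of CMs minus the mean change of ECs, FBs and HCs. Arm ratios, log2 of 5p over 3p counts with 0.5 added, were tested with limma 3.58.1 where both arms averaged 10 counts or more. Single values were compared with an exact two-sided permutation test (70 arrangements, smallest p 0.0286). CPM is relative to the mature counts of a library. With 10504090 to 16975435 counts per library, counting error is small for abundant miRNAs, and the tests rest on the spread between pools. A fold change of a miRNA with no count at D0 was replaced by a lower bound at 3 counts over the group where stated. Names with identical counts in every library (7 pairs) cannot be told apart. The procedures were tested on simulated data in which as many miRNAs or arm ratios were set higher as lower. Those data held no shift of composition like that between D0 and D7, so they do not test the choice of scale.

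Alternatives were RLE factors, library size with and without miR-1a-3p, DESeq2 1.42.0, no filter, other sets of libraries, a replicate block, another pseudocount and leaving out each library. miRNAs were named if they were list members with a mean of at least 100 CPM, among the 10 largest rises or falls without overlap, the 10 most abundant, cell type markers, among the 3 largest changes of the other contrasts each way, or 1 of 8 hairpins with the largest arm change and at least 50 counts per arm. The members and lists were chosen with earlier results of these data known. Python 3.11.15, numpy 2.4.6, pandas 2.3.3, scipy 1.17.1 and matplotlib 3.10.9 were used.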

Additional observations from a re-analysis of the deposited data

Results flagged for a closer look

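Of 262 groups of 4 libraries checked, 21 held a library whose gap to the nearest other over the range exceeded Dixon's 95% critical value, which chance gives in about 1 of 20 groups. Most of these concern replicate 1 of D0. On the log2 TMM scale it was the highest of its group in miR-17-5p (5.12), miR-20a-5p (7.36), miR-199a-5p (6.58), miR-210-3p (5.01), miR-21a-5p (10.53), miR-126a-5p and miR-126b-3p (9.32 each), and the lowest in miR-30a-3p (12.42), miR-30e-3p (12.49) and miR-181a-2-3p (7.82). In each of these 10 miRNAs its value lay on the side of the D7 libraries. It also had the most detected miRNAs at D0 (548) and the highest summed FB markers (217 CPM) and leukocyte markers (75.9 CPM), and the part of these in the 10 miRNAs was not tested.

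Elsewhere at D0, miR-214-5p was highest in replicate 3 (1.95 on the log2 TMM scale), the share of the 10 most abundant miRNAs in replicate 2 (91.1%) and the share of reads with no match in replicate 4 (42.0%). At D7, replicate 2 was lowest in let-7a-5p (13.18), let-7j (11.03) and miR-148a-3p (12.22) and highest in the counts of miR-126b-3p per 100 of miR-126a-5p (100.05), and replicate 1 was highest in let-7b-5p (11.31).

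The change from D0 to D7 in CMs differed from the mean change of ECs, FBs and HCs by 5.70 in miR-29b-3p, 4.13 in miR-29c-3p, 4.05 in miR-29a-3p, -4.68 in miR-148a-3p, -3.99 in miR-151-3p and -3.12 in miR-10a-5p on the log2 scale, each past an adjusted p of 0.05 with edgeR's test of the difference.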

How the results depend on the processing

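The number of miRNAs that differed between D7 and D0 stayed within 1.5 times 334 under the alternatives run: 313 to 343 when 1 library was left out, 338 with RLE factors, 346 with DESeq2, 367 of 1214 with no filter on low counts, 283 of 401 in a fit of the D0 and D7 libraries alone, 331 of 477 with names of identical counts merged, 294 when a fold change of 2 or more was also asked for, 407 on library size without miR-1a-3p and 419 on library size. Its split into higher and lower did not, being 188 to 146 on TMM, 388 to 31 on library size and 347 to 60 on library size without miR-1a-3p. On library size the log2 fold change turned to let-7a-1-3p 1.41, let-7a-5p 0.72, let-7b-5p 1.67, let-7c-2-3p 1.41, let-7c-5p 1.73, let-7d-3p 1.30, let-7e-5p 1.86, let-7f-5p 0.47, let-7g-5p 1.32, let-7i-5p 0.36, let-7j 0.44, miR-98-5p 2.06, miR-30a-5p 1.51, miR-30c-5p 1.82, miR-30d-5p 1.10, miR-30e-5p 1.73, miR-25-3p 0.69, miR-24-2-5p 1.28, miR-24-3p 2.22, miR-27a-3p 1.95, miR-27b-3p 2.11, miR-22-3p 1.94, miR-22-5p 1.69, miR-146a-5p 1.96, miR-155-5p 1.64, miR-126a-3p 1.44, miR-26a-5p 2.13, miR-26b-5p 2.32, miR-378a-3p 1.25, miR-378b 0.80, miR-378c 1.41, miR-378d 0.97, miR-486a-5p 0.41, miR-486b-5p 0.41, miR-148b-3p 0.47, miR-152-3p 2.23, miR-99a-5p 0.79, miR-100-5p 0.58, miR-145a-5p 2.26 and miR-122-5p 0.71. On library size without miR-1a-3p it turned to let-7a-1-3p 0.74, let-7b-5p 0.90, let-7c-2-3p 0.74, let-7c-5p 0.95, let-7d-3p 0.62, let-7e-5p 1.09, let-7g-5p 0.58, miR-98-5p 1.31, miR-30a-5p 0.80, miR-30c-5p 1.01, miR-30d-5p 0.39, miR-30e-5p 1.04, miR-24-2-5p 0.57, miR-24-3p 1.48, miR-27a-3p 1.17, miR-27b-3p 1.33, miR-22-3p 1.20, miR-22-5p 0.98, miR-146a-5p 1.18, miR-155-5p 0.85, miR-126a-3p 0.67, miR-26a-5p 1.36, miR-26b-5p 1.55, miR-378a-3p 0.53, miR-378b 0.099, miR-378c 0.69, miR-378d 0.25, miR-152-3p 1.48, miR-99a-5p 0.063 and miR-145a-5p 1.47. These turns follow from the scale alone.

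Other turned signs were of miRNAs that did not pass the test: with DESeq2 and, to the same digits, with RLE factors miR-26b-5p 0.088, miR-152-3p 0.070 and miR-145a-5p 0.097, with no filter miR-98-5p 0.099, miR-24-3p 0.25, miR-27b-3p 0.14, miR-146a-5p 0.010, miR-26a-5p 0.18, miR-26b-5p 0.35, miR-152-3p 0.32 and miR-145a-5p 0.34, in the fit of D0 and D7 alone miR-24-3p 0.012, miR-26b-5p 0.13, miR-152-3p 0.094 and miR-145a-5p 0.13, with identical counts merged let-7d-5p -0.11, with the replicate block miR-26b-5p 0.0096. With 1 library left out, the range was -0.078 to 0.083 for let-7d-5p, -0.18 to 0.060 for miR-26b-5p, -0.21 to 0.22 for miR-152-3p, -0.21 to 0.28 for miR-145a-5p and -0.19 to 1.13 for miR-150-5p, and the turned values were without D0 replicate 1 miR-26b-5p 0.060, miR-152-3p 0.22 and miR-145a-5p 0.28, without D0 replicate 2 miR-145a-5p 0.031, without D0 replicate 3 miR-26b-5p 0.050, without D0 replicate 4 let-7d-5p -0.0022, without D7 replicate 2 let-7d-5p -0.063, without D7 replicate 3 let-7d-5p -0.078 and miR-150-5p -0.19, without D7 replicate 4 let-7d-5p -0.057. The cause was not tested. Of 81 named miRNAs past the threshold, 8 (let-7a-1-3p, let-7c-2-3p, miR-30a-5p, miR-23a-3p, miR-24-2-5p, miR-22-5p, miR-99a-5p and miR-451a) lost it without some library.

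The replicate numbers do not pair the libraries: the correlations of same-numbered D0 and D7 deviations were 0.027, -0.011, 0.12 and 0.15, and not every library correlated best with its own number. With the replicate number as a block 333 miRNAs differed between D7 and D0, 29 between D7 and D3 and 1 between D14 and D7, 317 of the differences between cell types passed, and 71 arm ratios changed. Against D3 there were 52 with DESeq2, 31 with no filter and 1 to 43 with 1 library left out. Against D14 there were 12, 13 and 0 to 6. Arm ratios changed in 62 to 77 hairpins with 1 library left out, and in 46 of 64 with a mean of at least 50 counts per arm, where fewer hairpins were tested. The difference between cell types was called in 294 to 328 miRNAs with 1 CM library of D0 or D7 left out, and in 325 without replicate 3 of D0 in HCs, the shallowest library of the series.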
